A study of Homo sapiens with 6 samples.

Results

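Microexons, exons of 3 to 30 bases, were examined in K562 cells, an erythroleukemia line, after knockdown of PCBP1, an RNA-binding protein that prefers C-rich RNA. Members were chosen from GENCODE release 44 by 1 rule. The exon had to be internal, joined to an upstream exon end and a downstream exon start in some transcripts of its gene, while other transcripts joined those same 2 positions directly. The rule found 1342 microexons in 1101 genes, among 48936 cassette exons of every length. Of these, 938 microexons in 800 genes reached a mean of 10 estimated counts for the inclusion or the skipping form, and 404 did not. Both groups carried a pLKO.1 lentiviral hairpin, aimed at luciferase in shCtrl (3 libraries) or at PCBP1 in shPCBP1 (3 libraries). Cells were infected overnight with 8 µg/mL polybrene and then kept under 3 µg/mL puromycin for 4 days before poly-A RNA was taken. Each group therefore rests on 1 hairpin in 1 cell line, and the labels do not say whether replicates were separate transductions, so p-values measure only the spread between these libraries.

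Microexons are so short that the splicing machinery has little exon sequence to bind, and their recognition leans on the neighbouring introns. They are best known from neurons, where the SR-related protein SRRM4 promotes their inclusion through UGC motifs just upstream of the exon, and where most keep the reading frame and alter protein surfaces. PTBP1, which binds pyrimidine tracts, holds many of them out of mature RNA in other cells. PCBP proteins bind the same pyrimidine-rich stretch before an exon when it is rich in C.

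Examples are shown here because the results turn on them. The exon is in capitals, and the 40 intronic bases before it and 12 after it are in lower case, 5′ to 3′ on the strand of the gene, from the GRCh38 genome. The first 6 belong to exons whose inclusion differed between the groups without overlap, each computed from transcript abundance and from counts alike.
AP2M1 (exon chr3:184180645-184180650, plus strand): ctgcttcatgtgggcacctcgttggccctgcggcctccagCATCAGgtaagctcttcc
FLNA (exon chrX:154357251-154357274, minus strand): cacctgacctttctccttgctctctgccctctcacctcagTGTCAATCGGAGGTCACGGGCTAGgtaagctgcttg
SYNJ1 (exon chr21:32634861-32634884, minus strand): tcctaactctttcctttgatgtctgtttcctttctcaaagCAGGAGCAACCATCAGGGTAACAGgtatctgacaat
EIF4A1 (exon chr17:7578227-7578244, plus strand): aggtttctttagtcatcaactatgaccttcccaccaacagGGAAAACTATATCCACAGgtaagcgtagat
MINK1 (exon chr17:4893286-4893309, plus strand): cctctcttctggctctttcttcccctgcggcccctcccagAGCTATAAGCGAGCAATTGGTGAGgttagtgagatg
PPP3CB (exon chr10:73439872-73439901, minus strand): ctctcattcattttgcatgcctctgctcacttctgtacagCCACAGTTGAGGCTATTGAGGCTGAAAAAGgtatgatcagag
The next 5 belong to genes known for microexons. EIF4G1 and EIF4G3, paralogous scaffolds of translation initiation, carry microexons of 21 bases that match at 17 positions.
EIF4G1 (exon chr3:184316713-184316733, plus strand): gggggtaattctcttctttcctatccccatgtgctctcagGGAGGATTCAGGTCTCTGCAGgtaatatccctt
EIF4G3 (exon chr1:20982388-20982408, minus strand): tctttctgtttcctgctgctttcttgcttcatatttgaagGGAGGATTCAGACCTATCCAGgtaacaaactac
CPEB4 (exon chr5:173943026-173943049, plus strand): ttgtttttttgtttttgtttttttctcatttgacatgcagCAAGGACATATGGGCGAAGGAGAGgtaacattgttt
ABI1 (exon chr10:26771075-26771089, minus strand): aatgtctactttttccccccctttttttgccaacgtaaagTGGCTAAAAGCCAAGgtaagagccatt
CLASP2 (exon chr3:33566732-33566734, minus strand): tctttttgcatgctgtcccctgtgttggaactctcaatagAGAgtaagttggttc
All of these lie in coding sequence. In the 50 intronic bases before the exon, C made up 48% for MINK1, 40% for AP2M1 and FLNA, 30% for ABI1 and 8% for CPEB4, while T made up 60% for CPEB4 and 26% for AP2M1.

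The libraries were checked before the exons were compared. They held 83033656 to 140522444 estimated counts in shCtrl and 67066747 to 85121124 in shPCBP1. PCBP1, the targeted gene, was measured at 37800 to 40567 normalized counts in the control libraries and at 6624 to 7276 in the shPCBP1 libraries, which left 18.1% of the control level. All 8 erythroid markers were at a TPM, a relative transcript abundance scaled for length, of 1 or more, with summed TPM of 28811 to 34620 in shCtrl and 32977 to 34398 in shPCBP1. Of 5 neuronal markers, only SYP reached 1 TPM, and the sum over the list was 5.12 to 6.0 TPM in shCtrl and 3.54 to 5.57 TPM in shPCBP1. EPCAM was the only one of 4 epithelial markers at 1 TPM or more, at 26.7 to 38.1 TPM, and the part of these markers in any result was not tested. Libraries of 1 group differed by more than counting noise, with chi-square values per degree of freedom of 6.50 to 16.4.

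Inclusion was expressed as percent spliced in (PSI), the TPM of transcripts that hold the exon as a share of the TPM of those and of the transcripts that skip it. Junction reads were not used here, so every PSI rests on the authors' transcript estimates. In control cells inclusion of microexons was low. Median PSI in shCtrl was 9.66% over the 938 microexons against 41.2% over all 34130 cassette exons with enough counts. PSI was under 10% for 474 microexons (50.5%, against 37.4% of all cassette exons), between 10% and 90% for 320 (34.1% against 31.3%), and over 90% for 144 (15.4% against 31.2%). For 128 microexons the inclusion form was listed at 0 in all 6 libraries. The low level held in each length class, with a median shCtrl PSI of 7.30% for 113 exons of 3 to 9 bases, 4.70% for 204 of 10 to 18 bases, 7.70% for 276 of 19 to 24 bases and 19.8% for 345 of 25 to 30 bases. At the edge of the rule, the 100 exons of 30 bases had a median of 29.0% and the 51 exons of 31 bases, just outside, one of 11.1%.

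**Figure D1:**
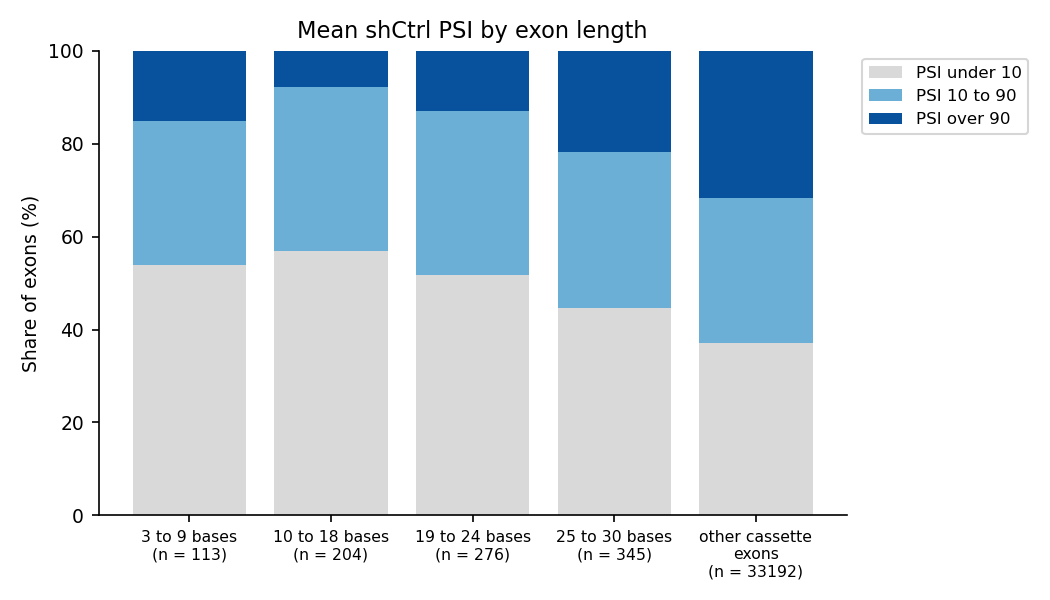
Stacked bars give the share of exons (%, y axis) by mean shCtrl PSI (n = 3 libraries) for 4 microexon length classes and for the other cassette exons (x axis, number of exons in brackets). Exons with a PSI over 90% made up 7.84% to 21.7% of the microexon classes and 31.7% of the 33192 other cassette exons.

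The build of the exons is given beside that of all cassette exons. Length was a multiple of 3 in 624 of 938 (66.5%, against 40.8% of all cassette exons), and in 80.5% of those of 3 to 9 bases. Coding sequence held 744 of them (79.3% against 68.0%), and of these coding microexons 74.3% were multiples of 3, against 36.6% of the 194 in untranslated or noncoding transcript parts. The intron before the exon ended in AG for 99.6% and the intron after it began with GT for 99.3%. Over the 50 bases before the exon, median T content was 42% against 38% for all cassette exons, and median C content was 22% in both. The trinucleotide TGC, the DNA form of the UGC motif, was searched on the strand of the gene in the 30 bases before the exon, and stood there for 463 microexons (49.4%) against 38.5% of all cassette exons. The share was 58.4% for exons of 3 to 9 bases, 59.3% for 10 to 18, 51.1% for 19 to 24 and 39.1% for 25 to 30. A run of CCCC on the same strand in the 50 bases before the exon was found for 153 microexons (16.3%) against 19.5% of all cassette exons. These matches describe sequence and no binding.

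The comparison of shPCBP1 with shCtrl asked how loss of PCBP1 alters inclusion. Across the 938 microexons inclusion was centred on no difference, with a median change of 0.00 points and quartiles of -1.14 and 1.33 points, against a median of 0.00 and quartiles of -1.62 and 0.99 over all cassette exons. In the limma fit over 37642 cassette events, 0 of 999 microexon events passed an adjusted p under 0.05 with a change over 5 points, and 13 of all events did (0.0345%). At an unadjusted limma p under 0.05 there were 88 microexon events. By exon this was 83 of 938 (8.85%), 42 higher and 41 lower in shPCBP1, against 9.92% of all cassette exons. The lowest adjusted p of a microexon was 0.0734, in limma, for a 24 base exon of USP15, a deubiquitinase, named here after its values were seen. It was absent from all 3 shCtrl libraries and stood at 1.24%, 0.722% and 1.64% in shPCBP1, so that the groups did not overlap but the change was 1.2 points.

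By the description used next, an exon differs when the 3 PSI values of 1 group all lie above the 3 of the other and the means are over 5 points apart. By that measure 32 of 938 microexons were higher in shPCBP1 (3.41%) and 27 were lower (2.88%). Over all cassette exons the shares were 2.29% higher and 3.9% lower. Rises thus made up 54.2% of the microexons that differed and 37.1% of all cassette exons that differed. That split turned with the unit. From estimated counts in place of TPM, 17 microexons were higher (1.81%) and 25 lower (2.67%). All cassette exons were then at 1.76% and 2.95%, close to the microexons in both directions. Rises from counts made up 40.5% of the microexons that differed, while all cassette exons stayed near their share at 37.3%. From TPM, the 3 to 9 base class had 5 exons higher (4.42%) and 6 lower (5.31%), and the 10 to 18 base class 10 (4.90%) and 1 (0.490%). The 19 to 24 base class had 10 (3.62%) and 10 (3.62%), and the 25 to 30 base class 7 (2.03%) and 10 (2.90%). Of the 32 higher exons 24 had a length divisible by 3 and 27 were coding, and of the 27 lower exons these counts were 22 and 22. Median C content before the exon was 23% for the higher and 26% for the lower microexons, against 20% and 28% for other cassette exons that differed, and CCCC stood before 18.8% and 25.9% of microexons against 17.4% and 37.1% of the others. At 5 TPM or more the order for CCCC was the opposite, with 5 of 22 higher microexons (22.7%) and 2 of 15 lower ones (13.3%).

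**Figure D2:**
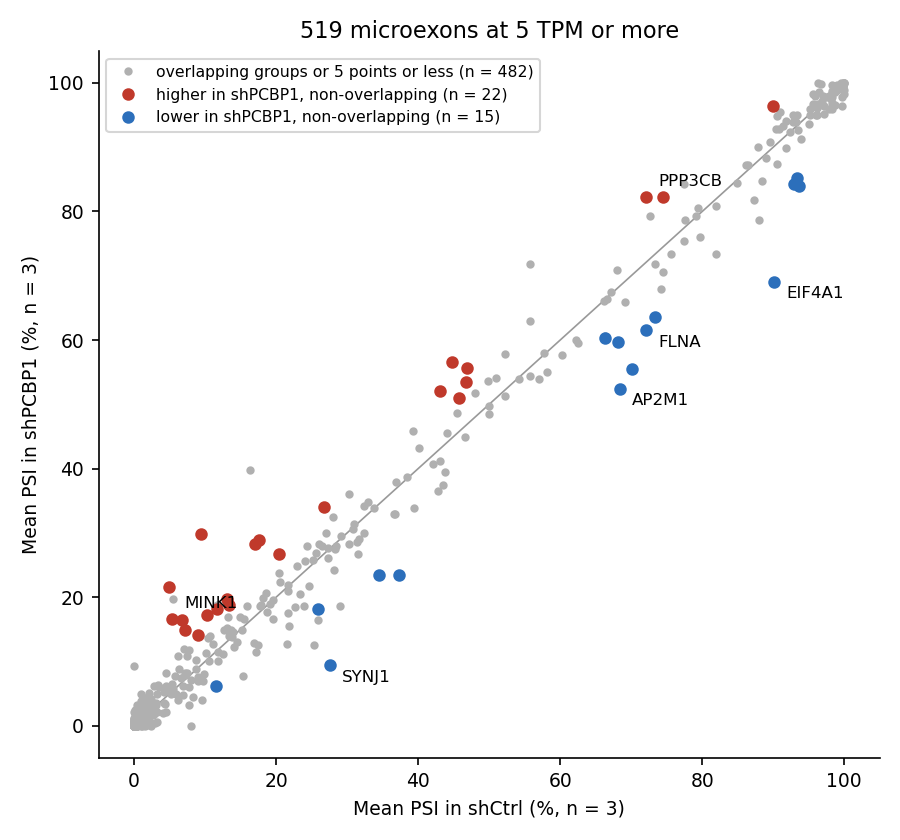
Mean PSI in shPCBP1 (y axis, %, n = 3 libraries) is plotted against mean PSI in shCtrl (x axis, %, n = 3) for the 519 microexons with a mean total of 5 TPM or more, 1 point per exon, with the line of equality. The 22 exons that were higher and the 15 that were lower without overlap of the groups are coloured, and 482 exons lie in grey, many of them near 0%. The coloured exons are 4.24% (higher) and 2.89% (lower) of the 519, against 2.24% and 4.49% of all cassette exons at this level.

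At 5 TPM or more, summed over both forms, 519 microexons were measured. By this description 22 of them were higher (4.24%) and 15 lower (2.89%). Over all 19015 cassette exons at that level, 2.24% were higher and 4.49% lower. These 22 and 15 microexons are what is called a rise or a fall from here on, since none passed limma. The 8 largest rises and 8 largest falls are described next, in order of what their genes do. Groups without overlap were the rule by which these exons were chosen, so that separation is no further result for them. Positions are on GRCh38, values are PSI from TPM, and no adjusted p from limma for these 16 exons was under 0.0846.

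Coats and membranes came first. AP2M1, the cargo-binding medium subunit of the clathrin adaptor AP-2, had the most abundant of these exons, with 294.4 TPM over both forms. Its 6 base exon stood at 69.2%, 68.6% and 67.3% in shCtrl and at 50.1%, 52.6% and 54.5% in shPCBP1. The groups lay far apart, at 68.4% ± 0.978 and 52.4% ± 2.25 (SD, n = 3), with a limma adjusted p of 0.189. Inclusion transcripts were at 194.8, 195.8 and 195.1 TPM in shCtrl and at 153.7, 161.1 and 161.5 TPM in shPCBP1, and skipping transcripts at 86.6, 89.8 and 94.8 TPM in shCtrl and at 153.3, 145.0 and 134.6 TPM in shPCBP1, so that neither form overlapped between the groups. The 2 main transcripts, one with and one without the exon, did not differ at any other intron. Another 6 base exon of AP2M1, which uses a different position, was nearly always skipped, at 0.018% in shCtrl and 0.020% in shPCBP1.

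SYNJ1, a phosphoinositide phosphatase that sheds clathrin coats, had a 24 base exon at 33.5%, 28.1% and 21.1% in shCtrl and at 6.89%, 5.18% and 16.0% in shPCBP1. It was lower in every shPCBP1 library, by 18.2 points, at 5.34 TPM in all, and its main transcripts differed at 27 other introns. The fall lay in the main inclusion transcript, with a mean of 1.22 TPM in shCtrl and 0.241 TPM in shPCBP1. That transcript also held exons of 39 bases, at chr21:32642095-32642133 and chr21:32644968-32645006, that the main skipping transcript lacked. Transcript pairs of SYNJ1 that differ at this exon alone gave no value, since some libraries held no TPM for them. CD47, the membrane signal that restrains phagocytosis, had a 25 base exon (chr3:108050578-108050602, minus strand) at 36.8%, 28.4% and 38.3% in shCtrl and at 22.4%, 22.6% and 25.3% in shPCBP1. ARF3, a small GTPase of the Golgi, had the only exon of the 16 in a 5′ UTR, 10 bases long (chr12:48941568-48941577, minus strand), at 11.4%, 7.10% and 1.71% in shCtrl and at 16.8%, 14.9% and 17.4% in shPCBP1. CD47 inclusion was thus lower and ARF3 inclusion higher, in both genes without overlap.

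Genes of the cytoskeleton and its signals followed. FLNA, the actin cross-linker filamin A, had a 24 base exon in transcripts of 181.1 TPM in all. Its PSI was 73.4%, 70.7% and 72.3% in shCtrl and 63.1%, 60.8% and 60.7% in shPCBP1. The difference of -10.6 points was larger than the spread within either group, 72.1% ± 1.37 against 61.5% ± 1.35 (SD, n = 3, limma adjusted p 0.293). Inclusion transcripts went from 140.3, 135.4 and 133.3 TPM to 108.3, 106.0 and 105.2 TPM, and skipping transcripts from 50.9, 56.2 and 51.2 TPM to 63.3, 68.4 and 68.0 TPM. Neither form overlapped between the groups, and the 2 main transcripts shared every other intron.

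MTSS2, a membrane-bending actin regulator, had a 9 base exon (chr16:70679315-70679323, minus strand) at 70.6%, 74.2% and 65.4% in shCtrl and at 56.3%, 55.8% and 54.4% in shPCBP1. ASAP1, an ARF GTPase-activating protein of adhesion sites, had a 9 base exon at 40.03%, 39.3% and 32.5% in shCtrl and at 21.3%, 28.2% and 20.7% in shPCBP1. Both were lower in every shPCBP1 library. HOOK3, an adaptor between dynein and its cargo, showed the largest rise, for a 6 base exon at 9.29%, 2.51% and 16.3% in shCtrl and at 33.4%, 25.7% and 30.1% in shPCBP1.

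MINK1, a serine/threonine kinase, had a 24 base exon at 5.42%, 5.63% and 4.77% in shCtrl and at 17.4%, 15.2% and 17.4% in shPCBP1. The change on the log2 ratio scale was 1.76 (SE 0.200), with a limma adjusted p of 0.0846. Inclusion transcripts held 1.06, 1.25 and 0.896 TPM in shCtrl and 3.21, 2.73 and 3.24 TPM in shPCBP1, a small part beside skipping transcripts at 17.9 to 20.9 TPM and 15.2 to 15.4 TPM. The rise lay in the main inclusion transcript, which had a mean of 0.055 TPM in shCtrl and 2.16 TPM in shPCBP1. The main skipping transcript of MINK1 held a further exon of 111 bases, at chr17:4892402-4892512, that this inclusion transcript lacked. Use of the 2 exons was therefore not measured independently. With a pseudocount of 1 TPM or on the PSI scale MINK1 passed, at limma adjusted p-values of 0.0168 and 0.0429, and AP2M1 passed with 1 TPM at 0.0406.

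**Figure D3:**
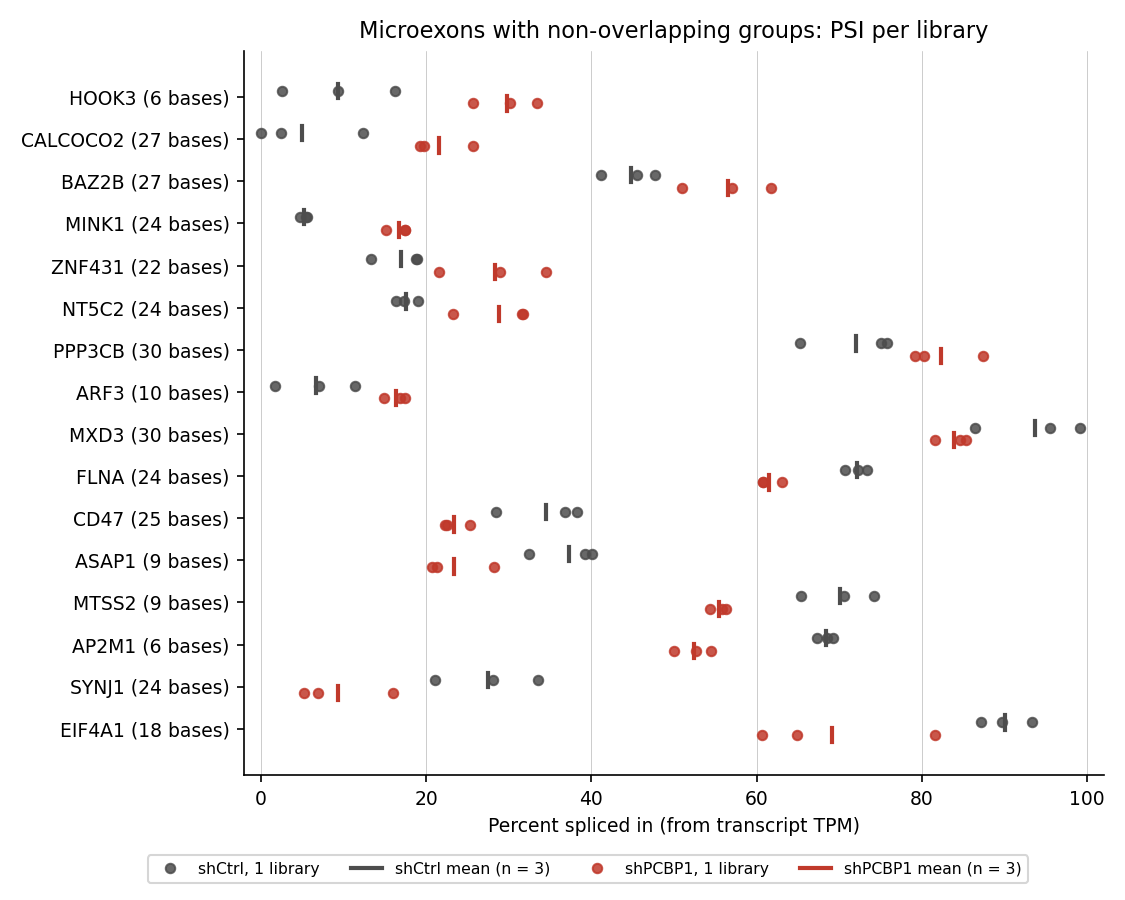
PSI from transcript TPM (x axis, %) is shown for the 8 largest rises and 8 largest falls among microexons at 5 TPM or more (y axis), with 1 point per library, 3 per group, and a bar at each mean. The rows were chosen for shCtrl and shPCBP1 points that lie apart, and the spread ranges from 0.449 (SD) for MINK1 to 6.89 for HOOK3 in shCtrl.

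The remaining exons lay in genes of gene expression, signalling and metabolism. EIF4A1, the RNA helicase of translation initiation, had an 18 base exon at 93.4%, 87.2% and 89.8% in shCtrl and at 64.9%, 81.6% and 60.7% in shPCBP1. This was the largest fall, 21.0 points, but the transcripts involved held 1.75% of the TPM of the gene. MXD3, a repressor of the MYC network, had a 30 base exon (chr5:177310668-177310697, minus strand) at 93.7% ± 6.56 in shCtrl and 83.9% ± 1.98 in shPCBP1 (SD, n = 3). Its skipping form held a mean of only 10.6 estimated counts and 0.851 TPM over the 6 libraries.

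BAZ2B, a bromodomain chromatin protein, had a 27 base exon (chr2:159397074-159397100, minus strand) at 44.8% ± 3.31 and 56.6% ± 5.37, and ZNF431, a KRAB zinc finger protein, a 22 base exon (chr19:21175453-21175474, plus strand) at 17.01% ± 3.20 and 28.3% ± 6.54 (SD, n = 3). PPP3CB, a catalytic subunit of calcineurin, had a 30 base exon at 75.1%, 65.3% and 75.8% in shCtrl and at 79.2%, 80.3% and 87.4% in shPCBP1, higher without overlap, between main transcripts that were otherwise joined alike. CALCOCO2, a selective autophagy receptor, had a 27 base exon (chr17:48848801-48848827, plus strand) at 2.39%, 12.4% and 0% in shCtrl and at 25.7%, 19.2% and 19.8% in shPCBP1, in which the control libraries varied among themselves more than the shPCBP1 libraries did. NT5C2, a cytosolic nucleotidase, had a 24 base exon (chr10:103105358-103105381, minus strand) at 17.6% ± 1.34 in shCtrl and 28.9% ± 4.88 in shPCBP1 (SD, n = 3), but the sign turned to -7.03 points from counts and to -12.5 points with protein-coding transcripts alone.

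Computing PSI from estimated counts, in which long transcripts weigh more, separated these 16 exons. The direction was the same for 15, the exception being NT5C2, and 8 still differed by over 5 points without overlap in that direction. For 6 the difference was within 1.5 times its TPM value. AP2M1 gave -16.4 points, FLNA -10.8, ASAP1 -12.7, EIF4A1 -24.2, MINK1 11.3 and PPP3CB 10.1. SYNJ1 gave -10.8 and HOOK3 5.15. The other 7 of the same direction fell to between 1.07 and 2.98 points in size, namely CD47, MXD3, MTSS2, ARF3, BAZ2B, CALCOCO2 and ZNF431. In MTSS2, for example, the skipping form held 308.0 counts on average against 10246 for the inclusion form. Leaving out each library in turn could not turn the direction, since the 16 were chosen for groups without overlap. It changed only the size, and the smallest such difference was 6.87 points, for PPP3CB without shCtrl replicate 2. Counting every transcript that holds or spans the exon, whatever its flanks, brought in further TPM only for AP2M1, FLNA, CD47, ARF3, CALCOCO2 and ZNF431. These kept their direction. For the other exons the values were the same as before, so this was no separate check of them. For 7 exons the main transcripts with and without the exon shared all other introns, and for the other 9 they differed at 1 to 31 of them. Among those 7, only the pair of PPP3CB had the same exons elsewhere. The pairs of AP2M1, FLNA, EIF4A1, ARF3, HOOK3 and ZNF431 also differed in where the transcripts start or end.

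**Figure D4:**
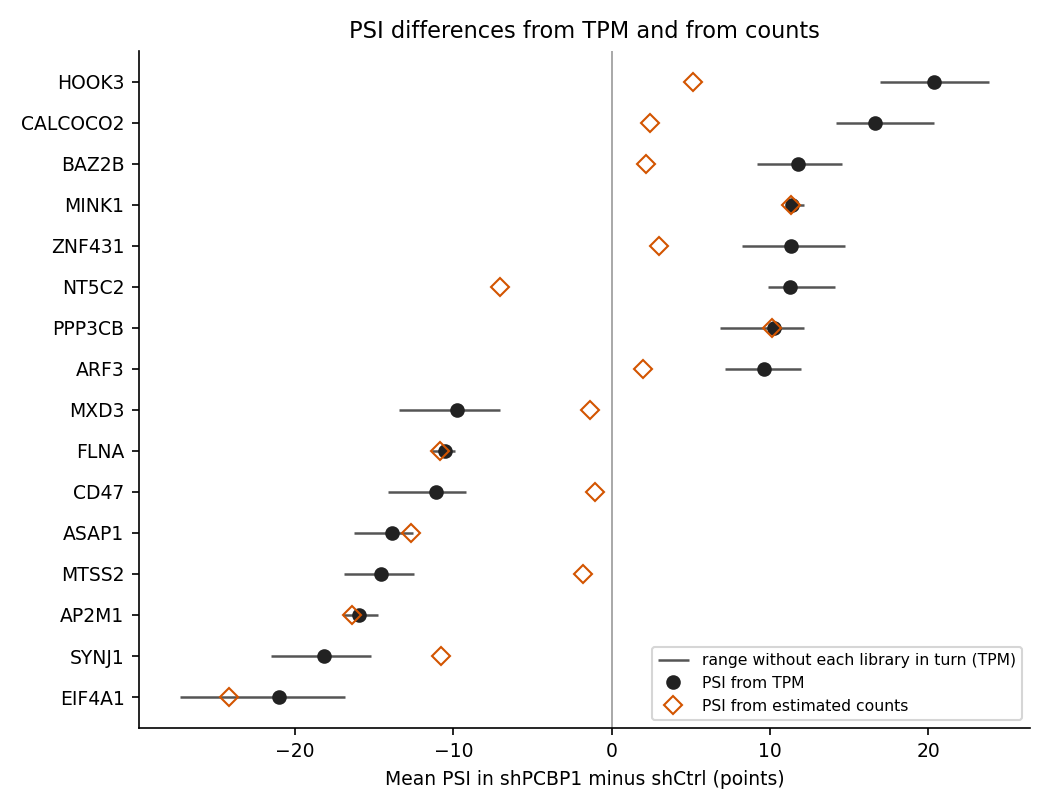
The difference in mean PSI, shPCBP1 minus shCtrl (x axis, points, n = 3 per group), is shown for the same 16 exons (y axis) from TPM (filled circles) and from estimated counts (open diamonds), and lines span the TPM values without each library in turn. The 2 symbols nearly coincide for AP2M1, FLNA, MINK1 and PPP3CB and lie on opposite sides of 0 for NT5C2.

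The level of each host gene was set beside its exon. Of the 16 genes, 5 were higher and 2 lower in shPCBP1 at a DESeq2 adjusted p under 0.05, against 17.7% higher and 13.5% lower of all genes tested, with log2 fold changes between -0.36 for ARF3 and 0.19 for ASAP1, and 0 changed over 2-fold. AP2M1 rose by 0.12 (SE 0.0367) and FLNA fell by 0.10 (SE 0.0303), whereas MINK1 was at -0.11 (SE 0.0504, DESeq2 adjusted p 0.0815). HOOK3, at 0.14, no longer passed in edgeR, with an adjusted p of 0.0614, nor in DESeq2 without shCtrl replicate 1 or 3 or shPCBP1 replicate 3, at 0.0513 to 0.0666.

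The other 14 rises at 5 TPM or more ran from 5.09 to 9.02 points, in exons of 3 to 28 bases of INPP4A, HDAC2, ATL2, MARK3, MTG2, ANK1, CYTH2, RSRC2, TRIM41, MACF1, TEAD2, AP1G1, ABI1 and SNRNP48. The shortest was the 3 base exon of CYTH2, an exchange factor for ARF GTPases, at 46.7% and 53.4%. The 24 base exon of ANK1, the ankyrin of the red cell membrane, went from 10.3% to 17.3%, and the 9 base exon of AP1G1, a subunit of the clathrin adaptor AP-1, from 13.4% to 18.8%. The other 7 falls ran from 5.36 to 9.71 points, in exons of 21 to 30 bases of AXL, SMIM29, ACLY, KIFC3, HNRNPA2B1, GPBP1 and CSPP1. In HNRNPA2B1 the transcripts involved held 1.15% of the TPM of the gene. ACLY, which makes cytosolic acetyl-CoA, went from 68.2% to 59.7% for a 30 base exon at 106.2 TPM. The adjusted limma p-values of these 21 exons were between 0.189 and 0.669. Apart from ABI1, they were named to complete the list, after their values were seen.

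Genes known for microexons, 27 of them, were taken as a list. An annotated microexon was found in 25, with 43 exons, of which 34 had enough counts and 24, in 17 genes, reached 5 TPM. Control PSI was under 10% for 12 of the 24, between 10% and 90% for 10 and over 90% for 2, against 280, 162 and 77 of all 519 microexons at this level. By non-overlap and 5 points, 1 was higher in shPCBP1 and 0 were lower, against 22 and 15 of the 519 microexons at this level. The one was the 15 base exon of ABI1, an adaptor of the WAVE complex that drives actin branching, at 46.4%, 47.4% and 43.4% in shCtrl and 49.6%, 52.6% and 50.9% in shPCBP1. The difference was 5.28 points, with a limma adjusted p of 0.668, and was 3.17 points from counts and 2.28 points whatever the flanks. Below the 5 TPM level, the 24 base exon of MEF2A, also on the list, was lower without overlap, by -12.9 points. At 4.55 TPM it was not among the 24, and it is named here after its values were seen. Its nearest libraries stood at 30.7% in shCtrl and 30.4% in shPCBP1, with a limma adjusted p of 0.552.

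Translation genes held the exons best known from neurons. The 24 base exon of CPEB4, a protein that controls poly-A tails, stood at 35.4%, 48.9% and 36.0% in shCtrl and 46.7%, 42.5% and 40.4% in shPCBP1, with overlapping groups. The 21 base exons of EIF4G1 and EIF4G3 were at 1.1% ± 0.095 and 2.09% ± 1.59 in shCtrl and at 0.810% ± 0.389 and 0.805% ± 0.729 in shPCBP1 (SD, n = 3). With every transcript over the exon counted, whatever its flanks, EIF4G1 stood at 1.04% and 0.740% and EIF4G3 higher than in its main event, at 11.2% and 8.71%. CPEB4 counted in that way stood at 57.9% and 55.5%, with the sign of its difference turned.

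Among nuclear regulators, the 21 base exon of MEF2D, a transcription factor of muscle and neurons, was at 42.1% ± 1.64 and 40.7% ± 3.63. The 12 base exon of KDM1A, a histone demethylase, had means of 0.370% and 0.047%, the 6 base exon of TAF1, the large TFIID subunit, of 0.779% and 1.22%, and the 23 base exon of PHF21A, a reader of unmethylated histone H3, of 96.5% and 98.6%. The PHF21A event held 28.1% of the TPM of its gene, and with every transcript over the exon counted its inclusion was 35.3% and 38.5%. None of these differed without overlap by over 5 points.

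In trafficking and adhesion genes, a 3 base exon of CLASP2 (chr3:33566732-33566734), a protein of microtubule ends, was nearly always included, at 98.3% and 98.8%. With every transcript over it counted, it stood at 93.0% and 93.7%. Another 3 base exon of CLASP2, at 1.64 TPM, stood at 76.5% and 77.4%. The 24 base exon of CLASP2 was nearly always left out, at 6.89% and 6.20%. The 21 base exon of the kinesin KIF21A had means of 20.4% and 23.8%. PTPRS, a receptor phosphatase, had a 27 base exon at 43.5% ± 5.17 and 37.4% ± 3.23 and a 12 base exon at 28.1% ± 1.03 and 24.2% ± 1.90 (SD, n = 3), which share inclusion transcripts. The PTPRS gene itself fell by 0.74 on the log2 scale (SE 0.0543, DESeq2 adjusted p 1.43e-39). The 21 base exon of PTK2, the focal adhesion kinase, was at 22.0%, 17.6% and 24.9% in shCtrl and 11.6%, 19.3% and 6.98% in shPCBP1, so that 1 shPCBP1 library overlapped the controls.

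The shortest and the most abundant microexons came next. RPS24, a ribosomal protein gene, has a 3 base exon that was included at 0.584% ± 0.230 in shCtrl and 0.624% ± 0.450 in shPCBP1 (SD, n = 3), in transcripts of 491.3 TPM, and at 0.112% and 0.115% with every transcript over it counted. Its 22 base exon, in the 3′ UTR, was at 18.7% ± 0.745 and 17.7% ± 0.429. PHB2, a prohibitin of the inner mitochondrial membrane, had a 6 base exon at 99.6% in both groups, and VDAC3, a channel of the outer membrane, had a 3 base exon at 2.13% and 2.35%. RPL23A, which has related copies elsewhere in the genome and is uncertain for that reason, had a 17 base exon at 21.6% ± 3.00 and 17.6% ± 3.16 (SD, n = 3). In each of these exons the 2 groups differed by less than 5 points.

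Genes listed as splicing regulators, PCBP1 itself included, were compared at the gene level, from a list of 30. With DESeq2, 22 had an adjusted p, of which 12 were higher in shPCBP1 (17.7% of all genes tested were), 5 were lower (13.5% of all genes) and 5 did not pass. PCBP1, lowered by the knockdown itself, is among the 5 lower. Among enhancers of microexons, SRRM3, a relative of SRRM4, stood at 136.3, 198.9 and 155.6 normalized counts in the control libraries and at 60.7, 92.6 and 72.0 in the shPCBP1 libraries. It fell by 1.12 on the log2 scale (SE 0.287, DESeq2 adjusted p 0.000674) and was the only gene of the list besides PCBP1 to change over 2-fold. Its level was low, at 0.785, 1.18 and 0.927 TPM in shCtrl and 0.318, 0.546 and 0.436 TPM in shPCBP1. SRRM4 had too few counts to enter the test. SRSF11 fell by 0.10 and RNPS1 rose by 0.33.

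Of the polypyrimidine tract proteins, PTBP1 rose by 0.29 (SE 0.0351) and PTBP3 by 0.20, while PTBP2, the neuronal relative, was at -0.16 (SE 0.0688, DESeq2 adjusted p 0.0619) and passed with TMM factors, at 0.0388, and without shPCBP1 replicate 2, at 0.0440. PTBP1 counts were 55740 to 59213 in shCtrl and 69439 to 73066 in shPCBP1, without overlap. Among regulators of tissue splicing 5 of 7 with an adjusted p rose, RBFOX2 by 0.33, CELF2 by 0.31, MBNL1 by 0.20, QKI by 0.14 and CELF1 by 0.13. RBFOX1, RBFOX3, NOVA1, NOVA2, ESRP1 and ESRP2 were too low for an adjusted p. Of 5 proteins that recognise the 3′ splice site, U2AF2 rose by 0.37, SF1 by 0.17 and PUF60 by 0.17, and U2AF1, which has a near-identical copy in this genome and is uncertain, did not pass. HNRNPK rose by 0.14, PCBP2 fell by 0.24 and PCBP4, whose exons overlap ABHD14B, fell by 0.55. Relations between these genes and the exons were not tested.

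**Figure D5:**
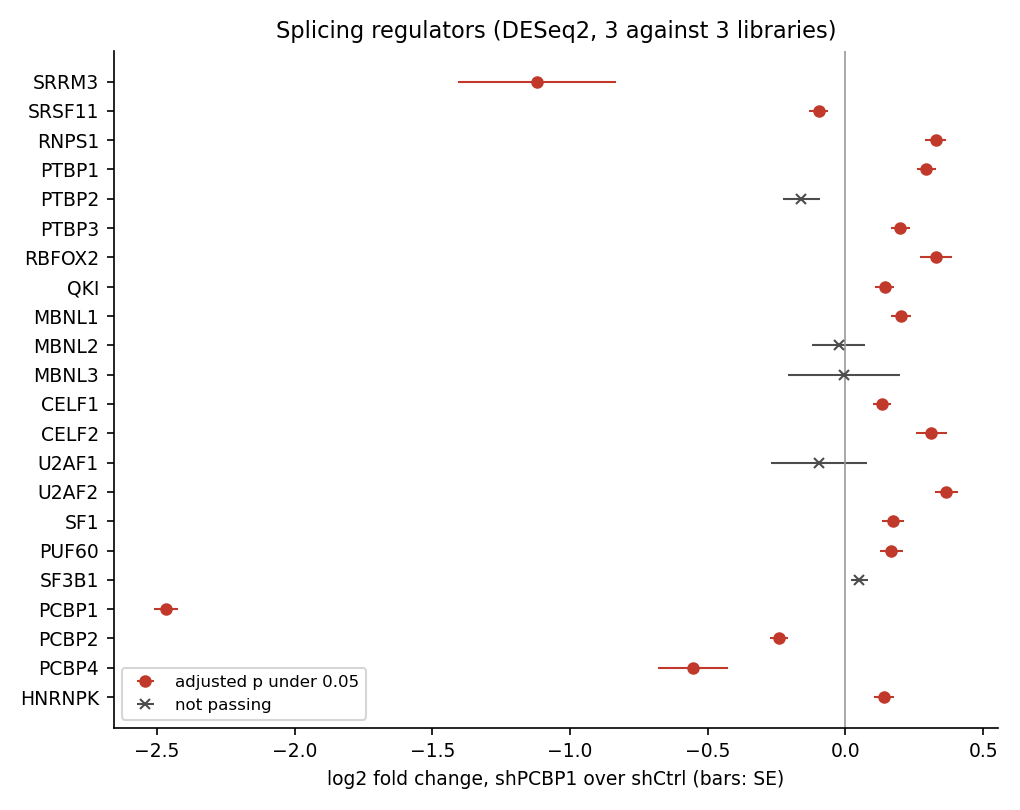
The log2 fold change of normalized counts, shPCBP1 over shCtrl (x axis, DESeq2, n = 3 per group, bars give the SE), is shown for the 22 listed splicing regulators with an adjusted p (y axis). Apart from PCBP1 at -2.47, SRRM3 at -1.12 and PCBP4 at -0.55, all lie between -0.24 and 0.37.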

How the data were processed

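Poly-A RNA of K562 cells was sequenced in 6 libraries, 3 per group. The authors quantified transcripts with Salmon 1.10.2. Estimated counts were deposited without normalization, and the deposited TPM values were scaled by the authors' software for effective transcript length and depth. The release behind the index was not given in the sources used here, and the labels name hg38. Of 252045 transcripts, 251142 matched GENCODE release 44 by exact identifier and version, and the others held 0.329% to 0.339% of counts and were left out.

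PSI was computed from TPM over the transcripts of each cassette event, with the event of highest TPM standing for an exon. The log2 ratio of inclusion to skipping TPM, each plus 0.1, was tested two-sided in limma 3.58.1, with mean log2 total TPM as trend, over all events with a mean of 10 estimated counts for either form. Genes were tested by a Wald test in DESeq2 1.42.0 on counts summed per gene and rounded, and in edgeR 4.0.16 as an alternative. P-values were adjusted by the Benjamini-Hochberg method. Exons named were the 8 largest rises and falls without overlap at 5 TPM or more, microexons of the listed genes at that level, the 5 most abundant of 3 to 6 bases, and the 3 most abundant with a control PSI of 10% to 90%. Members, lists and rules were chosen with earlier results of these data known. On simulated data the exon test recovered 7 of 200 events changed by 20 points and 154 of 200 changed by 40 points over 37642 events, and DESeq2 recovered 181 of 200 genes changed 3-fold over 28843 genes. Alternatives covered pseudocounts, filters, units, transcript sets, a replicate block, TMM factors and leaving out each library. Python 3.11.15 and R 4.3.3 were used. One marker list is not reported here.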

Additional observations from a re-analysis of the deposited data

How the results depend on the processing

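PSI from transcript estimates depends on whole transcripts. In the simulation, at 3 libraries a group, the exon test recovered 7 of 200 events raised by 20 points. Of those 200, 190 were under an unadjusted limma p of 0.05, so most were lost in the adjustment over 37642 events. Changes of that size thus mostly did not pass one by one there. How far this holds for the share of events changed in the real data was not tested. The count of 0 microexon events passing in limma became 2 with a pseudocount of 1 TPM (AP2M1 and MINK1), 1 with 0.01 TPM (ZSWIM7) and 1 on the PSI scale (MINK1). It was 0 with 10 counts for both forms, no filter, 5 TPM, counts, protein-coding transcripts, minimal pairs, a threshold of 10 points, the replicate block and without each library, and unadjusted p-values under 0.05 then numbered 2 among 33 events for minimal pairs, which include events with no TPM in some libraries, and 50 to 99 in the other settings that were refitted. The 13 calls over all events became 120 and 30 with pseudocounts of 1 and 0.01 TPM, 48 on the PSI scale, 7 with 10 counts for both forms, 6 without a filter, 8 with protein-coding transcripts, 0 with minimal pairs, and 0 to 1 without each library. The deviations of libraries that share a number were not related (correlations of -0.033 to -0.027 over exon events and -0.031 to 0.039 over genes), and with the replicate block 0 microexon events and 0 events in all passed. Microexons higher without overlap numbered 17 from counts and 2 among minimal pairs, and 40 to 47 without each library. Those lower numbered 15 at 5 TPM, 1 among minimal pairs and 37 to 46 without each library, where a group of 2 overlaps less readily. The 234 genes passing all gene thresholds became 122 to 248 without each library, with 122 without shCtrl replicate 2, and 174 under the replicate block. NT5C2 turned to -7.03 points from counts and -12.5 points with protein-coding transcripts. Its main inclusion transcript has no defined coding sequence, so it is not among the protein-coding ones. That transcript had a mean of 0 TPM in shCtrl and 4.34 TPM in shPCBP1, and the cause was not tested. Among genes that did not pass, MBNL3 stood at 0.0060 on the log2 scale under the replicate block and at -0.095 to 0.090 without each library, MBNL2 at -0.13 to 0.11, U2AF1 at -0.24 to 0.058, BAZ2B at -0.095 to 0.033 and MXD3 at -0.025 to 0.089. SRSF11 lost its call without shCtrl replicate 1 or 3 or shPCBP1 replicate 2, at DESeq2 adjusted p-values of 0.0569 to 0.0758, and ASAP1 without shPCBP1 replicate 1, at 0.0649. MINK1 as a gene passed with TMM factors (0.0431) and without shCtrl replicate 3 (0.0371), and MTSS2 without shPCBP1 replicate 3 (0.0263), in DESeq2.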
